A study of Mus musculus with 9 samples.

Results

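The genes described here are 60 broadly expressed genes on mouse chromosome 14, between about 45 and 88 Mb of the mm10 genome, out of 25239 gene symbols with a count in RNA-seq of *Rbbp4* mutant embryonic stem cells (ESCs). They were picked by name and position because genes of this stretch had been seen to be lower in both *Rbbp4* mutant lines, so their differences from the control describe the choice and carry no test. The question was how uniform the reduction is and which genes escape it. The first member along the chromosome is *Cnih1* (46775567 to 46788411, minus strand) and the last is *Sugt1* (79587691 to 79635196, plus strand).

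Poly(A) RNA was sequenced from 3 ESC lines with 3 libraries each. The control was E14, a line derived from a mouse blastocyst, with unmutated *Rbbp4*. Both mutants came from E14 through CRISPR-Cas9 cutting of the sequence for the N-terminus of RBBP4, and each is 1 clone: Rbbp4Ins/Ins carries a short in-frame insertion on both alleles, and Rbbp4Ins/Del carries that insertion on one allele and a longer in-frame deletion on the other. All lines were grown in serum with leukemia inhibitory factor. With 1 clone per genotype, an effect of the mutation and a property of the clone cannot be told apart, and nothing says whether the libraries of a line came from separate cultures, so p-values measure the spread between libraries only.

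RBBP4 is a histone chaperone subunit shared by chromatin complexes such as PRC2, NuRD, and Sin3, and acts at genes on every chromosome. The 60 genes described here are broadly expressed genes with varied jobs. Among them are a proteasome subunit, nuclear transport receptors, mRNA methylation and tRNA modification enzymes, and DNA repair factors. Some members share a complex, as *Psme1* and *Psme2* do. Neighbours on a chromosome share a physical template but most have their own promoter, while some start close together on opposite strands. The subunits of most complexes are encoded on several chromosomes.

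The libraries held 15838064 to 21366868 counted reads, and values are given as normalized counts, that is, reads scaled to one common library size. *Rbbp4*, on chromosome 4, had 9932, 9965, and 10117 normalized counts in the control, 5485, 5551, and 5776 in Rbbp4Ins/Ins, and 10129, 10344, and 10603 in Rbbp4Ins/Del. Its transcript was thus at 56.0% of control in one mutant and 104% in the other. The 10 ESC markers examined, *Pou5f1*, *Nanog*, and *Esrrb* among them, summed to 90960 to 95697 normalized counts in the control, 123285 to 125143 in Rbbp4Ins/Ins, and 121580 to 124942 in Rbbp4Ins/Del. The 3 neural markers (*Sox1*, *Pax6*, *Nes*) summed to 2547 to 2560 in the control and 380 to 440 in the mutants. Summed markers of feeder fibroblasts (6 genes) were at 572 to 652 in the control, 273 to 305 in Rbbp4Ins/Ins, and 377 to 407 in Rbbp4Ins/Del, with *Lum* at 3 reads or fewer throughout. Those of trophectoderm (3 genes) were at 167 to 188, 77.9 to 95.8, and 46.0 to 72.9, and those of primitive endoderm (6 genes, of which *Gata4* and *Sox7* lie in the segment) at 345 to 379, 192 to 252, and 272 to 305. The 4 mesoderm markers were at 229 to 261, 319 to 353, and 274 to 285. Of these, *Mesp1* was at 3 reads or fewer throughout, and *T* in both mutants but not in the control. In the other lists, *Postn* was as low in both mutants, *Elf5* in the control and Rbbp4Ins/Ins, and *Cdx2* in Rbbp4Ins/Ins. Several of these lists were thus lower in the mutants as the members were, and the part of such cell types in the values below was not tested. In bulk RNA, fewer cells of a type and less RNA per cell cannot be told apart.

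All 60 members had enough reads for edgeR's quasi-likelihood test, in which a gene was called at a Benjamini-Hochberg adjusted p of at most 0.01 over 14125 genes. In Rbbp4Ins/Ins, 59 members were called lower than control, where 29.4% of all tested genes were. In Rbbp4Ins/Del, 59 were called lower as well, against 31.9% of all genes. The same 59 were lower in both lines, against 26.7% of all genes, and each of them had all 6 mutant libraries below all 3 control libraries, a separation found for 30.6% of all genes. Only *Atg14* among the 60 stood outside this pattern. Because the members were selected on this contrast, these shares say nothing further.

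The typical size of the reduction was slightly less than 2-fold. The median log2 fold change over the 60 members was -0.92 in Rbbp4Ins/Ins and -0.93 in Rbbp4Ins/Del, where -1 would be 2-fold lower, and these medians stand for 52.9% and 52.5% of control. Over all tested genes the medians were 0.00 and -0.01. The middle 50% of members (interquartile range) lay between -1.07 and -0.74 in Rbbp4Ins/Ins and between -1.13 and -0.75 in Rbbp4Ins/Del. Of the 60, 41 (68.3%) were within 0.25 of the median in Rbbp4Ins/Ins and 38 (63.3%) in Rbbp4Ins/Del. In each line 52 (86.7%) were within 0.5. Of all tested genes, 43.5% and 39.9% were within 0.25 of their own median, and 65.9% and 61.9% within 0.5. For genes on other chromosomes at or above the lowest member's level, these shares were 53.5% and 48.6%, and 77.8% and 73.5%. The standard error of a single member's log2 fold change had a median of 0.052 and 0.053, so the spread among members, with a standard deviation of 0.41 and 0.42, exceeded the error of the individual values. Reductions of over 2-fold were seen for 20 members in Rbbp4Ins/Ins and 24 in Rbbp4Ins/Del, with 18 in both; over all tested genes the shares past 2-fold were 9.15%, 10.4%, and 8.21%.

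The size of the reduction varied little between mutant libraries. The median member stood at 53.5%, 52.9%, and 53.0% of its control mean in the Rbbp4Ins/Ins libraries and at 52.3%, 52.4%, and 53.1% in the Rbbp4Ins/Del libraries. Reads on the 60 genes made up 0.768% to 0.783% of all counted reads in the control, 0.412% to 0.415% in Rbbp4Ins/Ins, and 0.405% to 0.414% in Rbbp4Ins/Del. The 59 lowered members were below the lowest control library in every mutant library taken singly.

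**Figure D1:**
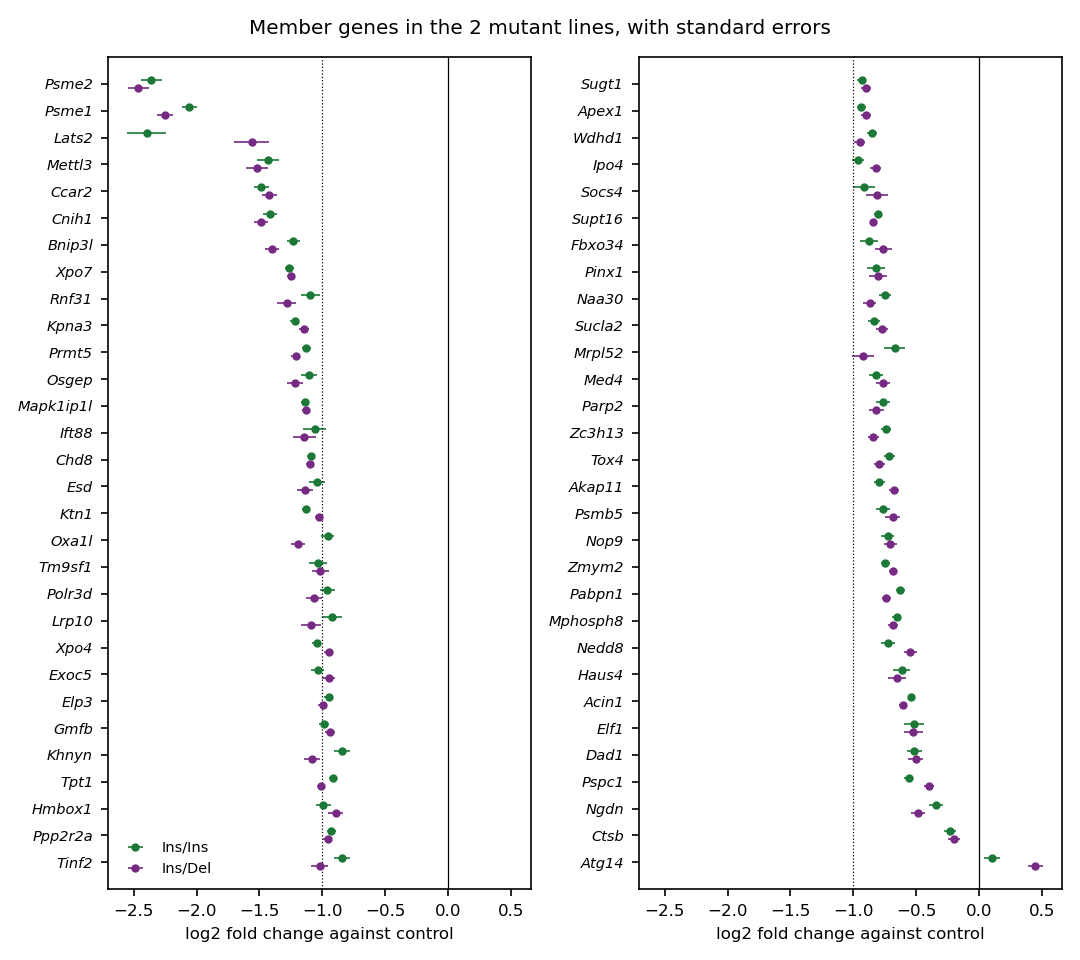
Log2 fold change against control (horizontal axis) for each of the 60 members, ordered by the mean of the 2 mutants, with Rbbp4Ins/Ins in green and Rbbp4Ins/Del in purple. Points are edgeR estimates and bars are standard errors from 3 libraries per line; the dotted line marks a 2-fold reduction. Most members sit between -1.13 and -0.74, *Psme2*, *Psme1*, and *Lats2* lie far below, and *Atg14* is the only member above 0.

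By the mean of both mutants the lowest members were *Psme2* and *Psme1*, which encode the 2 subunits of the PA28 ring that opens the proteasome and is inducible by interferon. *Psme2* (chromosome 14, 55587441 to 55591113, read from the minus strand) counted 784, 793, and 824 normalized counts in the control, 157, 169, and 141 in Rbbp4Ins/Ins, and 145, 123, and 172 in Rbbp4Ins/Del. Every mutant library was at a fraction of every control library, and the mutants overlapped each other. Its log2 fold change was -2.36 in Rbbp4Ins/Ins (SE 0.082) and -2.46 in Rbbp4Ins/Del (SE 0.083), or 19.5% and 18.3% of control. *Psme1* (55578123 to 55581529, plus strand) had 1247, 1385, and 1235 counts in the control, 318, 318, and 291 in Rbbp4Ins/Ins, and 274, 258, and 281 in Rbbp4Ins/Del. It was at 24.0% and 21.0% of control, with log2 fold changes of -2.06 (SE 0.062) and -2.25 (SE 0.063). The mutant libraries of *Psme1* did not overlap each other, yet the difference of -0.19 between the lines did not pass the test (edgeR adjusted p = 0.078).

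*Lats2*, a kinase of the Hippo pathway, was the third by that mean, the lowest member in Rbbp4Ins/Ins, and the one with the fewest reads. The gene lies on the minus strand from 57689662 to 57758388. Control libraries had 188, 189, and 160.2 normalized counts, with 35.1, 29.3, and 37.0 in Rbbp4Ins/Ins, and 75.6, 49.6, and 57.9 in Rbbp4Ins/Del. The 3 lines formed 3 separate groups of libraries. Log2 fold changes were -2.40 (SE 0.16) and -1.56 (SE 0.14), which correspond to 18.9% and 34.1% of control.

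*Mettl3*, *Ccar2*, and *Cnih1* completed the lower end, all between 35.0% and 37.5% of the control level. *Mettl3*, the catalytic subunit of the m6A mRNA methyltransferase, had 580.5, 617, and 633 normalized counts in the control, 215, 187, and 277 in Rbbp4Ins/Ins, and 227, 187, and 228 in Rbbp4Ins/Del. *Ccar2*, a nuclear regulator of the deacetylase SIRT1, had 1017, 1037, and 1024 in the control, 365, 334, and 397 in Rbbp4Ins/Ins, and 394, 371, and 386 in Rbbp4Ins/Del. *Cnih1*, a cargo receptor for export from the endoplasmic reticulum, had 1181, 1224, and 1222 in the control, 449.9, 453, and 457 in Rbbp4Ins/Ins, and 395, 461, and 432 in Rbbp4Ins/Del. Control libraries of each gene lay clear of all mutant libraries, while the mutant lines overlapped. Percentages of control were 37.1% and 35.0% for *Mettl3*, 35.6% and 37.4% for *Ccar2*, and 37.5% and 35.5% for *Cnih1*, in Rbbp4Ins/Ins and Rbbp4Ins/Del.

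The 4 members nearest the median were picked for that position and illustrate the typical reduction. *Sugt1*, a co-chaperone of HSP90, had 2775, 2763, and 2646 normalized counts in the control, 1455, 1433, and 1399 in Rbbp4Ins/Ins, and 1428, 1492, and 1465 in Rbbp4Ins/Del. *Apex1*, the main endonuclease of base excision repair, had 3159.8, 3225, and 2974 in the control, 1638, 1635, and 1624 in Rbbp4Ins/Ins, and 1652, 1749, and 1619.9 in Rbbp4Ins/Del. Both were at 52.3% to 53.6% of control in each mutant. *Ppp2r2a*, a regulatory subunit of the phosphatase PP2A, had 3503, 3580.4, and 3443 in the control, 1821, 1856, and 1862 in Rbbp4Ins/Ins, and 1790.0, 1751, and 1898 in Rbbp4Ins/Del. *Tinf2*, the shelterin protein TIN2 of telomeres, had 785, 834, and 790.3 in the control, 500.4, 431, and 403 in Rbbp4Ins/Ins, and 386, 404, and 395 in Rbbp4Ins/Del. Over these genes the mutant libraries of a line differed from each other by far less than from the control. In the annotation, 61.7% of the exonic length of *Apex1* overlaps *Pip4p1* and 31.2% of *Tinf2* overlaps *Gmpr2*, on the opposite strand; the strand setting of the counting is not given in the sources used here, so reads of such pairs may be shared.

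**Figure D2:**
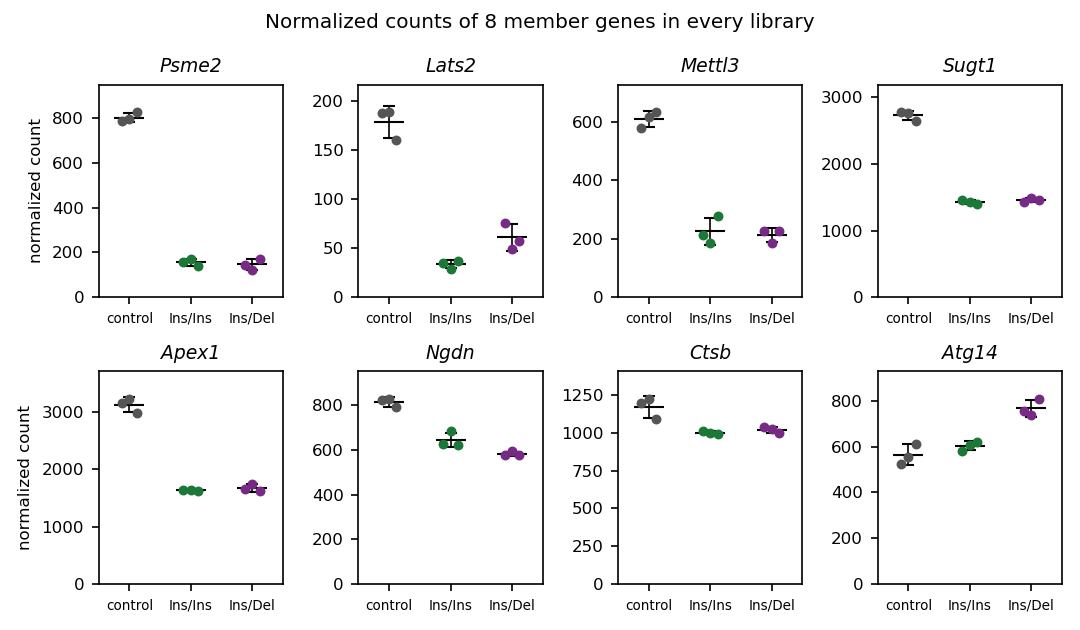
Normalized counts (vertical axis, from 0) of 8 members in each of the 9 libraries, with control in grey, Rbbp4Ins/Ins in green, and Rbbp4Ins/Del in purple; points are libraries, dashes are means, and bars are SD with n = 3. *Psme2*, *Lats2*, and *Mettl3* show strong reductions, *Sugt1* and *Apex1* are typical at 52.3% to 53.6% of control, *Ngdn* and *Ctsb* are reduced little, and *Atg14* is not reduced.

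*Atg14* was the single member that escaped in both mutants. It encodes the subunit that directs the class III PI3-kinase complex I to sites of autophagosome formation, and it lies at 47540893 to 47570649 on the minus strand, between *Fbxo34* and *Ktn1*. *Atg14* had 523, 556, and 614 normalized counts in the control, 583, 609, and 623 in Rbbp4Ins/Ins, and 758, 738, and 809.9 in Rbbp4Ins/Del. The control and Rbbp4Ins/Ins libraries overlapped, and the Rbbp4Ins/Del libraries were above both. The log2 fold changes were 0.10 in Rbbp4Ins/Ins (SE 0.062), which was not called, and 0.45 in Rbbp4Ins/Del (SE 0.060), which was called higher, as 30.6% of all tested genes were. Members on either side were lowered in full: *Fbxo34*, an F-box protein, was at 54.5% and 59.3% of control, and *Ktn1*, the kinesin receptor kinectin of the endoplasmic reticulum, was at 45.6% and 49.2%.

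*Ctsb* and *Ngdn* were the next highest members by the mean of both mutants. *Ctsb*, the lysosomal protease cathepsin B, had 1199, 1227, and 1090.2 normalized counts in the control, 1011, 1003, and 991 in Rbbp4Ins/Ins, and 1039.7, 1025, and 997 in Rbbp4Ins/Del. The lowest control library was only just above the highest mutant library, and *Ctsb* stayed at 85.5% and 87.1% of control. Its exons overlap *Fdft1* on the opposite strand over 12.8% of their length. *Ngdn*, a nucleolar protein of small ribosomal subunit assembly, had 824, 829, and 790.3 counts in the control, 627, 683, and 624 in Rbbp4Ins/Ins, and 578, 594, and 575 in Rbbp4Ins/Del, or 79.1% and 71.5% of control.

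*Pspc1*, *Dad1*, and *Elf1* made up the rest of the upper end, at roughly 70% of control. *Pspc1*, a paraspeckle protein, had 2193, 2139, and 2263 normalized counts in the control, 1458, 1447, and 1569 in Rbbp4Ins/Ins, and 1684, 1671, and 1639.5 in Rbbp4Ins/Del. *Dad1*, a subunit of the oligosaccharyltransferase that N-glycosylates proteins, had 647, 715, and 654 in the control, 474, 477, and 459 in Rbbp4Ins/Ins, and 467, 476, and 476 in Rbbp4Ins/Del. *Elf1*, an ETS family transcription factor, had 552, 459.9, and 577 in the control, 366, 364, and 382 in Rbbp4Ins/Ins, and 375, 402, and 324 in Rbbp4Ins/Del. No mutant library of these genes reached a control library. *Pspc1* was at 67.8% and 75.7% of control, *Dad1* at 69.9% and 70.4%, and *Elf1* had a log2 fold change of -0.52 in each mutant.

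Grouped by what their products do, members of all 7 role groups were lowered, with group medians in Rbbp4Ins/Ins from -1.04 to -0.73. Differences between the groups were not tested. The 10 genes of secretory traffic and nuclear transport were all called lower in both mutants, with medians of -1.04 and -1.02, from *Cnih1* at the low end to *Dad1* at the high end. They include the nuclear export receptors *Xpo7* (-1.26 and -1.25) and *Xpo4* (-1.04 and -0.95) and the importin *Kpna3* (-1.22 and -1.15). The 12 genes of genome and chromatin function were all called lower as well, with medians of -0.85 and -0.90. They ran from *Ccar2* to the H3K9me3 reader *Mphosph8* (-0.65 and -0.68). Among them were *Prmt5*, the arginine methyltransferase (-1.13 and -1.21), and *Chd8*, a chromatin remodeller (-1.09 and -1.10). *Supt16*, the large FACT histone chaperone subunit, was at -0.81 and -0.84, and *Parp2*, a DNA damage sensor, at -0.77 and -0.82.

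The protein turnover and folding group spanned the widest range, since it holds both *Psme2* and *Atg14*. Of its 12 genes 11 were called lower in each mutant, with medians of -0.90 and -0.84. *Psmb5*, the chymotrypsin-like catalytic subunit of the 20S proteasome, was at -0.76 and -0.69, *Nedd8*, the ubiquitin-like modifier of cullins, at -0.72 and -0.54, and *Bnip3l*, a mitophagy receptor, at -1.23 and -1.40. The 9 genes of RNA processing and ribosome assembly had the highest medians, -0.73 and -0.74, and ran from *Mettl3* to *Ngdn* in Rbbp4Ins/Ins and to *Pspc1* in Rbbp4Ins/Del. They include the nuclear poly(A)-binding protein *Pabpn1* (-0.63 and -0.74) and the splicing factor *Acin1* (-0.54 and -0.60).

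The remaining role groups were small. The 8 genes of signalling and cytoskeleton had medians of -0.96 and -0.98, the 5 of transcription -0.82 and -0.79, and the 4 of mitochondria and metabolism -0.90 and -1.03, and all of them were called lower in both mutants. *Tpt1*, which encodes the abundant protein TCTP, had the most reads of any member and stood at 53.1% and 49.8% of control. The reduction had little relation to expression level, gene length, or position: Spearman's rho of the mean log2 fold change over the 60 members was 0.07 with the control level per kb of exon, -0.09 with exonic length, and 0.02 with position along the chromosome, as descriptions of genes that share the same libraries.

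The 2 mutant lines were also compared with each other on these genes. The members were chosen for a reduction in both lines, which can favour genes on which the lines agree. The median log2 difference, Rbbp4Ins/Del minus Rbbp4Ins/Ins, was -0.02, with the middle 50% of members between -0.10 and 0.07. By edgeR's quasi-likelihood test 4 of the 60 members (6.67%) differed at an adjusted p of at most 0.01, where 10.8% of all 14125 tested genes did. Of these, 3 were higher in Rbbp4Ins/Del, against 6.17% of all genes, and 1 was lower, against 4.64%. For 58 members (96.7%) the difference was within 0.25 of that median. Of all tested genes, 77.9% were within 0.25 of their own median. Among genes on other chromosomes at or above the lowest member's level, 89.1% were. The number of members that differ between the clones was not above the background. Because of how the members were chosen, no conclusion on agreement between the lines is drawn from this.

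*Lats2* and *Atg14* had the largest differences, both with more transcript in Rbbp4Ins/Del. The log2 difference of *Lats2* was 0.84 (95% interval 0.46 to 1.22, edgeR adjusted p = 0.0017). That of *Atg14* was 0.34 (0.23 to 0.46, edgeR adjusted p = 4.2e-05). In both genes all Rbbp4Ins/Del libraries lay above all Rbbp4Ins/Ins libraries, which adds little to a call from the same libraries. *Pspc1* was also higher in Rbbp4Ins/Del, by 0.16 (0.08 to 0.24, adjusted p = 0.004). *Oxa1l*, the insertase of the inner mitochondrial membrane, was the sole member called lower in Rbbp4Ins/Del than in Rbbp4Ins/Ins. It had 1296, 1301, and 1223 normalized counts in the control, 646, 660.1, and 664 in Rbbp4Ins/Ins, and 589.9, 563, and 517 in Rbbp4Ins/Del, a difference of -0.23 between the mutants (-0.35 to -0.12, adjusted p = 0.0033). At an adjusted p of at most 0.05, 11 members differed between the lines. The share of all tested genes at that limit is not given here, so the 11 cannot be set against a background. Without Rbbp4Ins/Ins library 2, Rbbp4Ins/Del library 1, or Rbbp4Ins/Del library 2, the count of 4 dropped to 2.

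**Figure D3:**
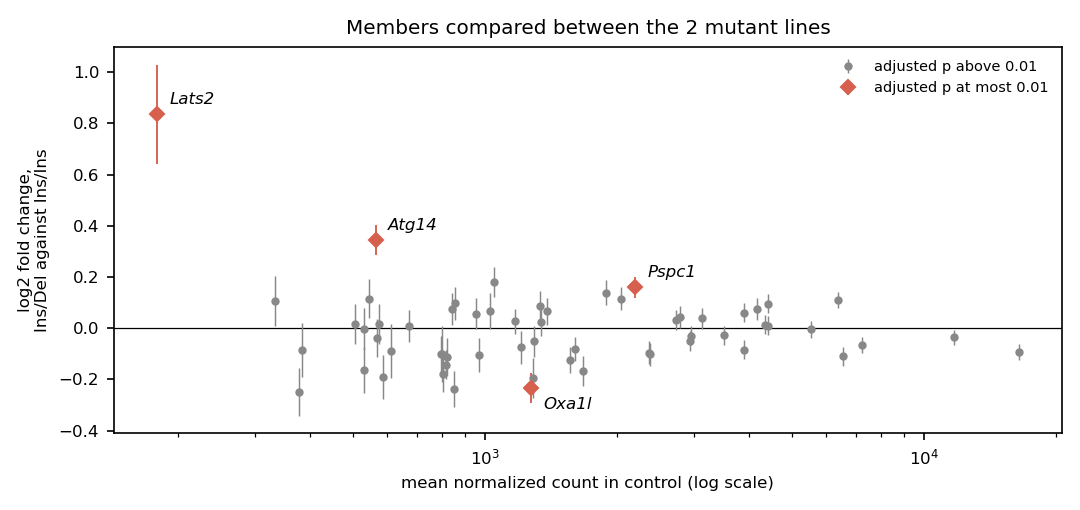
Log2 fold change of Rbbp4Ins/Del against Rbbp4Ins/Ins (vertical axis) for each member, plotted against its mean normalized count in the control (horizontal axis, log scale). Points are edgeR estimates with standard errors from 3 libraries per line; red diamonds are the 4 members with an adjusted p of at most 0.01, *Lats2* (0.84), *Atg14* (0.34), *Pspc1* (0.16), and *Oxa1l* (-0.23), and the other 56 are grey.

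The 60 members are a sample of the genes in the segment, and the other genes there behaved alike in their median but varied more. Between 45 and 88 Mb, 205 other genes were tested, with medians of -0.90 in Rbbp4Ins/Ins and -0.91 in Rbbp4Ins/Del, and 152 of them (74.1%) were called lower in both mutants and 10 higher in both, where 25.6% of all tested genes were higher in both. Their interquartile range was 0.98 in each mutant, against 0.32 and 0.38 for the members. When only the 143 other genes expressed at or above the lowest member were kept, 121 (84.6%) were called lower in both. The interquartile range of these 143 was smaller, 0.69 in Rbbp4Ins/Ins and 0.77 in Rbbp4Ins/Del. On chromosome 14 outside the segment, 66 of 200 tested genes (33.0%) were lower in both mutants, with medians of -0.07 and -0.10. On other chromosomes, 10014 genes at or above the level of the lowest member had medians of 0.02 and 0.01.

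As a share of all counted reads, the whole segment went from 1.51% to 1.53% in the control to between 0.815% and 0.826% in the mutants. The rest of chromosome 14 went from between 1.56% and 1.57% to between 1.498% and 1.51%. Among the other chromosomes, the median log2 fold change of genes with a mean above 100 normalized counts lay between -0.03 and 0.07 for the autosomes, and was -0.16 and -0.18 for the X chromosome.

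The lowered members lie inside a run of genes whose ends are steps. Along chromosome 14, the median changed from 0.14 over the 15 genes before to -0.90 over the 15 genes after a point between *Tspan14*, a tetraspanin (0.13 and 0.08), and *Prxl2a*, a peroxiredoxin-like protein (-1.29 and -0.95), at 40993735. It changed back from -0.78 over 15 genes to -0.15 over the next 15 between *Tdrd3*, a Tudor domain protein (-1.72 and -1.79), which ends at 87545504, and *Mzt1*, a microtubule nucleation factor (-0.17 and -0.25), which starts at 99034544. The start of *Prxl2a* and the end of *Tdrd3* lie 46.6 Mb apart. Over this length, 191 of 200 genes with a mean above 100 normalized counts had a mean log2 fold change below 0. In both mutants 178 were called lower. The edges were placed on the measured values, so these counts describe the run.

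Before the left step came *Wapl* (0.15 and 0.14), *Ccser2* (-0.22 and -0.27), *Cdhr1* (-0.67 and -0.53), *Ghitm* (0.45 and 0.35), and *Tspan14*. Their values lay on both sides of 0, and *Ccser2* and *Cdhr1* were called lower in both mutants. After *Prxl2a* came *Ero1l* (-1.15 and -1.17), the oxidase of disulfide formation, *Psmc6* (-0.55 and -0.56), a proteasome ATPase, *Styx* (-0.98 and -1.01), and *Gnpnat1* (-0.86 and -0.91), all lower. *Prxl2a* is the only such gene before *Ero1l* at 45283087, so the stretch between them rests on 1 gene. At the right edge *Wbp4* (-0.65 and -0.79), *Elf1*, *Sugt1*, *Diaph3* (-0.99 and -0.89), and *Tdrd3* were lower. Past it, *Mzt1* (-0.17 and -0.25) was also called lower in both mutants. *Bora* (0.06 and 0.14), *Dis3* (-0.10 and 0.00), *Pibf1* (0.37 and 0.46), and *Klf5* (0.77 and 0.85) after *Mzt1* were not. No tested gene above 100 normalized counts lies between *Tdrd3* and *Mzt1*, so the place of the right edge is known only to within that gap.

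The members' medians were also taken by position. In 5 Mb windows, the median log2 fold change of the members in Rbbp4Ins/Ins was -0.95 for the 10 genes from 45 to 50 Mb, -0.79 for 16 genes from 50 to 55 Mb, -0.90 for 16 genes from 55 to 60 Mb, and -0.91 for 4 genes from 60 to 65 Mb. Further along it was -0.95 for 3 genes from 65 to 70 Mb, -0.9996 for 6 genes from 70 to 75 Mb, and -0.79 for 5 genes from 75 to 80 Mb. In Rbbp4Ins/Del the windows ran from -0.84 for the last of these to -1.10 for 6 genes from 70 to 75 Mb. Strongly and weakly lowered members could follow each other in the order of the members. *Ngdn*, at 79.1% and 71.5% of control, lies at 55015454, and the next member, *Psme1*, at 24.0% and 21.0%, at 55578123. Other tested genes, *Dcaf11* among them, lie between *Ngdn* and *Psme1*.

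**Figure D4:**
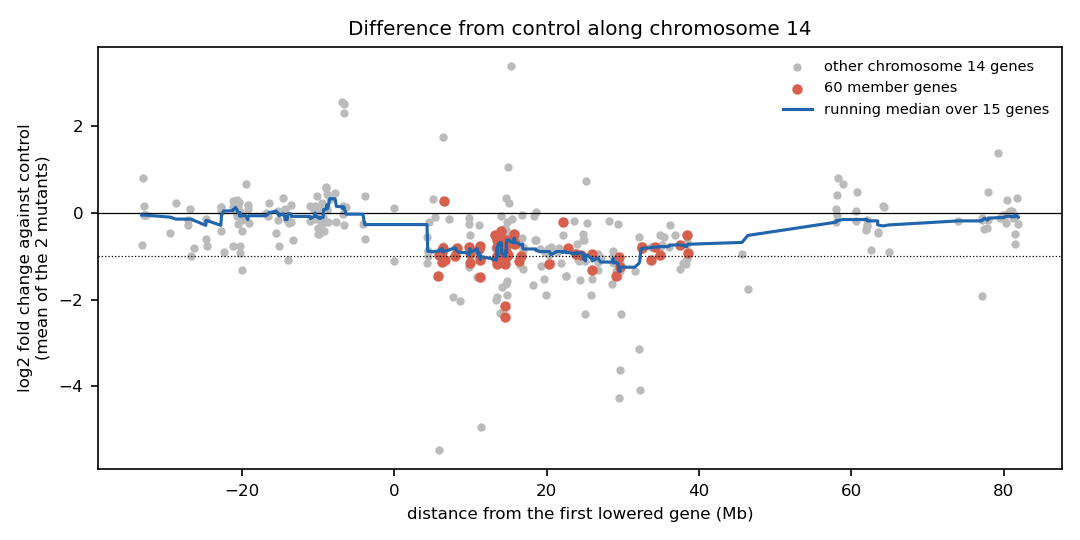
Mean of the 2 mutants' log2 fold changes against control (vertical axis) for chromosome 14 genes with a mean above 100 normalized counts, by distance in Mb from the first lowered gene, *Prxl2a* (horizontal axis). Members are red, other genes grey, and the blue line is a centred running median over 15 genes. The line stays between -0.30 and 0.33 on both sides of the run, is lower within it, down to -1.35 near *Fgf17* and up to -0.58 near *Pspc1* among the members, with stretches without such genes at both edges, and the dotted line marks a 2-fold reduction.

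Some other genes of the segment were higher in the mutants although they lie among the lowered members. Among those with a mean above 100 normalized counts, the highest was *Atp12a*, a proton-potassium ATPase, with 17.1, 13.6, and 22.7 normalized counts in the control, 167, 149, and 148 in Rbbp4Ins/Ins, and 234, 242, and 197 in Rbbp4Ins/Del. *Lgals3*, which encodes galectin-3 and lies close to *Atg14*, had 383, 400.2, and 356 in the control, 1151, 1092, and 1159 in Rbbp4Ins/Ins, and 1429, 1449, and 1402 in Rbbp4Ins/Del. Its log2 fold changes were 1.58 and 1.91 (SE 0.055 and 0.053). *Sdr39u1* (0.94 and 1.19), *Ptk2b*, a focal adhesion family kinase (0.67 and 0.81), *Tgm1*, a transglutaminase (0.09 and 0.58), and *Ubb-ps*, a ubiquitin pseudogene (0.27 and 0.39), followed. *Tgm1* and *Ubb-ps* were not called in Rbbp4Ins/Ins, and *Sdr39u1* shares exon sequence on the opposite strand with the member *Khnyn* (18.4% of the exonic length of *Khnyn*).

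Neighbours that start close together on opposite strands were compared side by side. *Apex1* and *Osgep*, the tRNA-modifying subunit of the KEOPS complex, start 74 bases apart on opposite strands and were at 52.3% and 53.6% (*Apex1*) and at 46.6% and 42.8% (*Osgep*) of control. *Socs4*, an adaptor of ubiquitin ligation, and *Wdhd1*, a replication fork protein, start 73 bases apart and were at 53.0% and 57.3% (*Socs4*) and at 55.6% and 51.8% (*Wdhd1*). *Psme2* and *Rnf31*, the catalytic subunit of the linear ubiquitin ligase LUBAC, start 594 bases apart, with log2 fold changes of -2.36 and -2.46 for *Psme2* and of -1.09 and -1.28 for *Rnf31*. Members also start within 1 kb of genes that are no members. *Parp2* (-0.77 and -0.82) starts 108 bases from *Ccnb1ip1*, a meiotic ubiquitin ligase, at -0.24 and -0.00, and 73 bases from *Rpph1*, the RNA of RNase P, at 0.56 and 0.86 with a mean of only 20.9 normalized counts. *Hmbox1* (-0.99 and -0.89) starts 173 bases from *Ints9* (-0.75 and -0.67), *Nop9* (-0.73 and -0.70) 2 bases from *Dhrs1* (-0.70 and -0.56), and *Dad1* (-0.51 and -0.50) 83 bases from *Abhd4* (-0.76 and -0.84). Some pairs were thus at like levels and others, those of *Psme2* and *Parp2*, were far apart. The difference within these pairs was not tested.

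The stretches between the paired starts, and the bases before the starts of the lowest members, are shown because they lie next to annotated starts of these genes. They come from the RefSeq promoter table for GRCm38.p6, leave out annotated exons, and are written 5′ to 3′ on the strand of the named gene, *Osgep* at chr14:50924894-50924967, *Wdhd1* at chr14:47276858-47276930, *Psme2* at chr14:55591114-55591351, and *Lats2* at chr14:57746124-57746373, all on the minus strand. The *Lats2* stretch precedes a RefSeq start that lies inside the gene as GENCODE draws it, whose own start is at 57758388. Capitals mark GGGCGG (the GC box) or CCAAT on either strand.
Osgep to Apex1: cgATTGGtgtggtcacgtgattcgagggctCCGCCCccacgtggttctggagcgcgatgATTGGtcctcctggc
Wdhd1 to Socs4: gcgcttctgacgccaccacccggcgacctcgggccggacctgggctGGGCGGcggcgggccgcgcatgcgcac
Psme2: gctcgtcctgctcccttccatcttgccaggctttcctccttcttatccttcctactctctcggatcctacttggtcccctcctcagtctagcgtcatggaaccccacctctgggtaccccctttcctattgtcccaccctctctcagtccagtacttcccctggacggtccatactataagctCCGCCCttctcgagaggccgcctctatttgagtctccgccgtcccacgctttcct
Lats2: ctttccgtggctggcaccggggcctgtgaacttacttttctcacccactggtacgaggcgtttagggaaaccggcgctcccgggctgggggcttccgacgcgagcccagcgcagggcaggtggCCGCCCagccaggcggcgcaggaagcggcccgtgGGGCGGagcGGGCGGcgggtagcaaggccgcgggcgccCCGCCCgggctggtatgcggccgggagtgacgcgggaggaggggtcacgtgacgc
The *Osgep* to *Apex1* stretch holds 2 CCAAT and 1 GGGCGG matches, the *Wdhd1* to *Socs4* stretch 1 GGGCGG, the *Psme2* stretch 1 GGGCGG, and the *Lats2* stretch 4 GGGCGG. A match is a match of letters and was not linked to binding of any factor.

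RefSeq promoter windows of 300 bases, 250 before and 50 after the start, were read for 49 of the 60 members. Their median GC content was 61.3% and their median number of CpG dinucleotides 24, against 52.7% and 7 over 27025 genes of the table. GGGCGG was found on either strand in 35 of 49 windows (71.4%), against 35.9% of all windows, CCAAT in 16 (32.7% against 38.0%), and TATAAA in 1 (2.04% against 14.2%), that of *Elf1*. None of these motifs contains another. The members were chosen as broadly expressed genes, so a difference from all genes cannot be read as a property of the segment.

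Many members encode subunits of complexes whose other subunits lie on other chromosomes, and those partners stayed, in the median, near the control level. A list of 113 partners from 21 complexes had 109 genes that were tested and lie off chromosome 14. Their median log2 fold change was 0.07 in each mutant, against medians of 0.00 and -0.01 over all tested genes. In Rbbp4Ins/Ins 16 were called lower, 39 higher, and 54 were not called, beside a background of 29.4% lower and 29.0% higher among all tested genes. In Rbbp4Ins/Del 17 were lower, 42 higher, and 50 not called, beside 31.9% and 30.6%. The member was below the median of its partners in both mutants in 20 of the 21 complexes, and 5 of the 109 partners were below their member in both mutants. Because the members were chosen for lower values, partners near the control level lie above them. These counts therefore follow from the choice and carry no test. FACT and ASAP had 1 partner each.

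In the proteasome, most core partners were above the control level. *Psmb5* was at -0.76 and -0.69. The 13 other subunits of the 20S core examined, from *Psma1* to *Psmb7*, had medians of 0.26 and 0.24, and the lowest of them in Rbbp4Ins/Ins was at -0.01. Of these 13, 11 (84.6%) were called higher in each mutant, against 29.0% and 30.6% of all tested genes. Beside *Psme1* and *Psme2*, the alternative proteasome activators *Psme3* (0.09 and 0.15) and *Psme4* (-0.02 and 0.17) moved little. *Psme3* was called higher in both mutants and *Psme4* in Rbbp4Ins/Del only. For *Dad1* the 9 partners in the oligosaccharyltransferase had medians of 0.23 and 0.23. For *Mettl3*, whose partner *Zc3h13* is also a member (-0.74 and -0.84), *Mettl14* was at 0.03 and -0.07 and *Wtap* at 0.44 and 0.46. The shelterin partners of *Tinf2* ranged in Rbbp4Ins/Ins from -0.22 (*Pot1b*) to 0.34 (*Terf2*), and the core subunits that bind *Ppp2r2a* ranged from -0.23 (*Ppp2cb*) to 0.08 (*Ppp2ca*).

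For *Atg14*, the 4 partners did not all move one way. *Pik3c3*, the lipid kinase, was called lower (-0.25 and -0.17), *Nrbf2* higher (0.41 and 0.33), and *Becn1* (0.07 and 0.01) and *Pik3r4* (0.02 and -0.01) were not called. The one partner lowered by over 2-fold in both mutants was *Med14* of Mediator, on the X chromosome. It had 2497, 2311, and 2580.0 normalized counts in the control, 1010.2, 1098, and 1049 in Rbbp4Ins/Ins, and 1081, 976, and 1079.5 in Rbbp4Ins/Del, with log2 fold changes of -1.23 (edgeR adjusted p = 2e-24) and -1.24 (adjusted p = 1.4e-24). The member *Med4* of the same complex was at -0.82 and -0.76. *Pphln1* of the HUSH complex, on chromosome 15 and named after its value was seen, was at -0.88 in both mutants, below the member *Mphosph8*.

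Of the listed partners, 3 lie on chromosome 14 and were kept apart. *Polr3a* (24448696 to 24487058) and *Tasor* (27423674 to 27483555), partners of *Polr3d* and *Mphosph8*, lie before the segment and were at -0.08 and -0.05 (*Polr3a*) and at 0.17 and 0.20 (*Tasor*). *Sap18* (57798180 to 57806638), a partner of *Acin1*, lies inside the segment near *Lats2* and had 224, 199, and 228 normalized counts in the control, 205, 193, and 196 in Rbbp4Ins/Ins, and 224, 208, and 248 in Rbbp4Ins/Del. It was not called in either mutant (-0.13 and 0.05), so it is, with *Atg14*, among the genes of the segment that were not lowered.

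**Figure D5:**
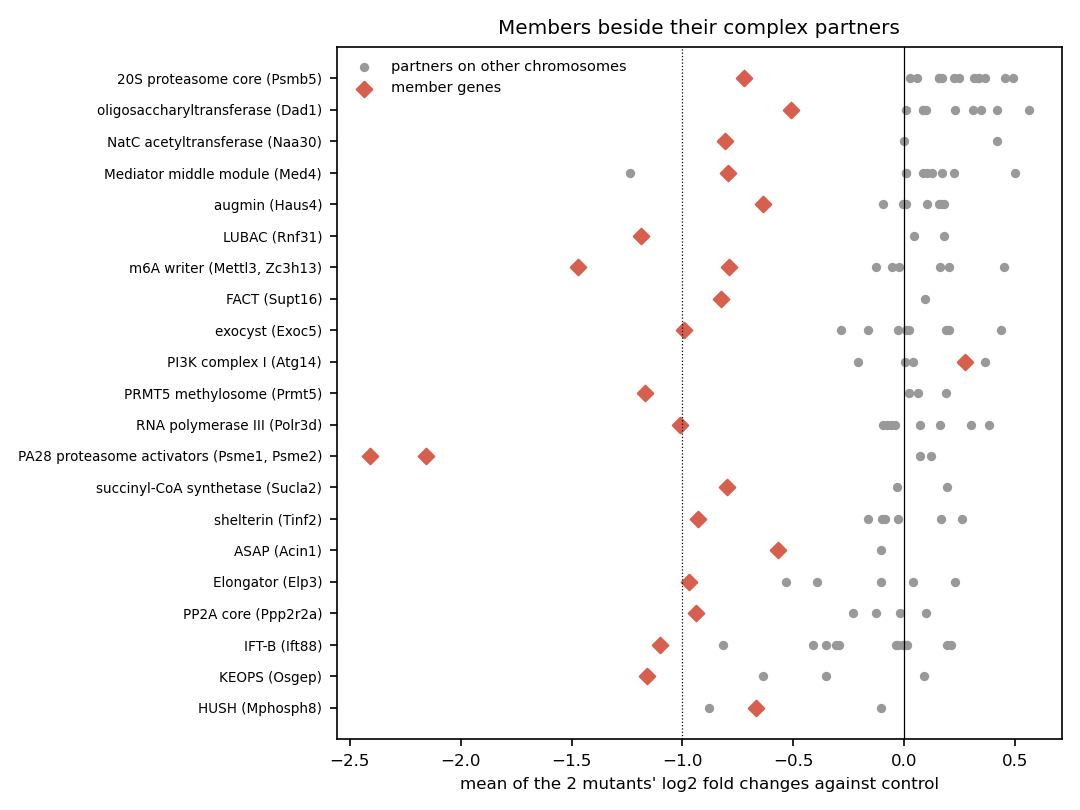
Mean of the 2 mutants' log2 fold changes against control (horizontal axis) for members (red diamonds) and for their complex partners on other chromosomes (grey points), with 1 row for each of 21 complexes; the dotted line marks a 2-fold reduction. In 20 complexes the member lies below the median of its partners in both mutants, and the exception is the complex of *Atg14*. The members were chosen for lower values, so this count follows from the choice.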

How the data were processed

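The authors isolated total RNA, prepared poly(A) libraries with a Kapa mRNA kit, and sequenced them as paired-end reads. Reads were aligned to mm10 with STAR 2.7.3 and counted by HTSeq, and the study tested its counts with DESeq2 1.22.2. The deposited values are whole-number counts per gene symbol for each of 9 libraries, with no normalization. The HTSeq version, annotation, and strand setting are not given in the sources used here. Overlapping genes and near-identical copies therefore carry an uncertainty that was not measured.

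The 60 members, the role groups, and the partner and marker lists were chosen with earlier results of these data known. Libraries were grouped by the genotype in their labels. TMM factors (0.993 to 1.02), the filterByExpr filter, and the quasi-likelihood test of edgeR 4.0.16 in R 4.3.3 were applied to all 9 libraries in one fit with 3 groups and no covariate, and p-values were adjusted by Benjamini-Hochberg over the 14125 genes that passed, of 20953 with at least 1 read. A gene was called at an adjusted p of at most 0.01. A standard error is the estimated log2 fold change over the root of its F statistic, and 95% intervals are the estimate ± 1.96 standard errors. Positions came from GENCODE M21 on GRCm38, the build of mm10, then RefSeq, for 25155 of 25239 symbols. The fit was run on counts simulated from its own dispersions. Of 13892 genes, 200 with a mean above 100 were changed 2-fold, in equal numbers up and down. It recovered 200 in each mutant, with 6 false calls in Rbbp4Ins/Ins and 3 in Rbbp4Ins/Del. It made 0 calls between the mutants, where no gene was changed. In the real data 58.4% and 62.5% of tested genes were called against control, a setting that the simulation did not cover. Within a line, library pairs differed by more than sampling noise, with chi-square per gene of 1.87 to 4.62, so none was a repeat deposit.

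The genes named are the 6 lowest and 6 highest members by the mean of both log2 fold changes, the 4 nearest the median, members not lower in both mutants or called between them, partners of these and partners past 2-fold in both mutants, the 6 highest other segment genes above 100 normalized counts, 5 genes on each side of each edge, divergent pairs within 1 kb, and *Rbbp4*. Other genes are given where a role, a neighbour, or a complex needs them. Tables and figures were made with Python 3.11.15, pandas 2.3.3, scipy 1.17.1, and matplotlib 3.10.9. Alternatives were DESeq2 1.42.0, its size factors in edgeR, total counts, TMM factors without chromosome 14, no filter, fits restricted to the compared groups, a replicate block, single libraries left out in turn, an adjusted p limit of 0.05, members above 1000 normalized counts, and a segment from 47 to 86 Mb. No promoter was read for *Bnip3l*, *Ccar2*, *Ctsb*, *Elp3*, *Hmbox1*, *Kpna3*, *Pinx1*, *Polr3d*, *Ppp2r2a*, *Xpo4*, and *Xpo7*. The partner *Trp53rk* was not matched to a symbol in the counts.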

Additional observations from a re-analysis of the deposited data

Results flagged for a closer look

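A direct test of Rbbp4Ins/Del against Rbbp4Ins/Ins (quasi-likelihood test in edgeR, Benjamini-Hochberg over 14125 genes) set 4 of the 60 members apart as different between the clones. *Lats2* was higher in Rbbp4Ins/Del by 0.84 on the log2 scale (adjusted p = 0.0017), with 75.6, 49.6, and 57.9 normalized counts there against 35.1, 29.3, and 37.0 in Rbbp4Ins/Ins. It has the fewest reads of the members. *Atg14* was higher by 0.34 (adjusted p = 4.2e-05) and *Pspc1* by 0.16 (adjusted p = 0.004), and *Oxa1l* was lower, with a difference of -0.23 (adjusted p = 0.0033). For each of the 4, all 3 libraries of one mutant lay beyond all 3 of the other. The 4 were picked by the test on these same libraries, so this separation adds no support. Its share over all tested genes is not given here. Of all tested genes 10.8% differed between the mutants.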

How the results depend on the processing

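Under every alternative that gives the count, 59 members were called lower in each mutant, and *Atg14* was called lower in none. The members' median log2 fold change ranged from -0.94 to -0.90 in Rbbp4Ins/Ins and from -0.93 to -0.90 in Rbbp4Ins/Del when single libraries were left out. With total count scaling the members' medians were -0.93 and -0.95, and the partners' median in Rbbp4Ins/Del was 0.052. With only the groups compared in the fit, the medians in Rbbp4Ins/Del were -0.92 for members and 0.082 for partners. Among members with at least 1000 normalized counts, the median was -0.90 in Rbbp4Ins/Del and the median difference between the mutants was -0.0047. Leaving out single libraries moved that difference between -0.020 and -0.0026 and the partners' median in Rbbp4Ins/Del between 0.058 and 0.085. The count of members that differ between the mutants was the least stable value. It was 2 to 5 when single libraries were left out and 11 at an adjusted p of at most 0.05, a limit with no background share given here. *Lats2* lost its call without Rbbp4Ins/Ins library 2 or Rbbp4Ins/Del library 1, *Pspc1* and *Oxa1l* each lost theirs without any of 4 single libraries, and *Atg14* kept its call in all alternatives. No called value changed sign.

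Deviations of libraries with the same replicate number had correlations of -0.024 to 0.060, against -0.0571 to 0.0575 for unlike numbers. No pairing by number was seen, but such small correlations cannot exclude one. With the replicate block, 59 members were called lower in each mutant, 4 differed between the mutants, 52 partners were called in Rbbp4Ins/Ins against 55 without it, and no other count of calls moved by over 1.5 times.

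With 3 libraries per line and 1 clone per genotype, differences between clones of one genotype were not measured. Depth limits *Lats2* most, with 29.3 to 37.0 normalized counts in Rbbp4Ins/Ins.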

Other observations

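The lowest other segment genes with a mean above 100 normalized counts were reduced to a lower share of control than any member; they were named after their values were seen. *Samd4*, an RNA-binding translational regulator, was at 2.71% and 1.87% of control. *Sall2*, a zinc finger transcription factor, had 979.7, 1002, and 1053 normalized counts in the control, 35.1, 47.4, and 28.5 in Rbbp4Ins/Ins, and 37.8, 27.1, and 23.1 in Rbbp4Ins/Del, which is 3.66% and 2.90% of control. *Bmp1*, a procollagen protease, was at 6.25% and 4.25% of control, *Lpar6*, a lysophosphatidic acid receptor, at 7.74% and 4.57%, and *Fgf17*, a fibroblast growth factor, at 7.01% and 9.11%. *Rcbtb2* had 1038, 994, and 1018 counts in the control, 138, 123, and 153 in Rbbp4Ins/Ins, and 91.0, 95.6, and 96.0 in Rbbp4Ins/Del. Among the members the lowest shares of control were 18.9% in Rbbp4Ins/Ins (*Lats2*) and 18.3% in Rbbp4Ins/Del (*Psme2*).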
